A study of Homo sapiens with 8 samples.

Results

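Integrins and laminins form the link between a cell and the matrix under it, and 37 genes of the 31034 single gene symbols in the deposited tables belong to them by name. They comprise 17 integrin alpha chains, 7 integrin beta chains, 12 laminin chains and ITGB1P1, a pseudogene of the beta chain gene ITGB1. Members were taken by symbol alone. Where a symbol had several rows, the row of highest mean level was used. ITGA8 was analysed at day 3.5 and not at day 0, and LAMB4 at day 0 and not at day 3.5. ITGA1 and ITGB3 appear only in rows merged with another gene and are not members.

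An integrin is a pair of an alpha and a beta chain that spans the cell membrane, binds matrix outside and is coupled to actin inside. The alpha chain largely sets the ligand. Some alpha chains bind the RGD sequence of fibronectin and vitronectin, some bind laminin, some bind collagen, and a further set is typical of leukocytes. Laminins are trimers of an alpha, a beta and a gamma chain and are the main adhesive protein of basement membranes. Human embryonic stem cells are commonly grown on laminin-rich matrix, to which integrins with the ITGA6 chain bind.

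RNA was sequenced from H9, a long-established line of human embryonic stem cells, in 4 groups of 2 libraries each. At day 3.5 the cells had been induced to mesoderm with bFGF, Activin, VEGF and BMP4 on a gel of 400 Pa (soft) or of 60 kPa (stiff). At day 0 they were undifferentiated, on the same 2 stiffnesses. All groups share the cell line, KSR-DMEM culture and growth on gels in medium conditioned by feeder cells. Whether the 2 libraries of each group came from separate cultures is not stated in the labels, so the authors' p-values may measure technical spread only. The tables give 1 FPKM (fragments scaled to transcript length and library size) per gene and group, so no value has an SD, and the depth is unknown. The 10 highest loci took 44.9% to 52.1% of all FPKM per group. The labelled state was checked on marker lists. The pluripotency genes POU5F1, SOX2, NANOG, LIN28A and DNMT3B summed to 380 FPKM on soft and 643 on stiff gel at day 3.5, and to 1197 FPKM on soft and 1202 on stiff gel at day 0. Each was lower at day 3.5 on soft gel. On stiff gel SOX2 was higher, at 164 FPKM against 116 at day 0, and LIN28A was nearly level, at 239 against 249. POU5F1 was at 114 FPKM on soft and 122 on stiff gel at day 3.5, so the genes did not share the gap between the gels. The mesoderm genes T, MIXL1, HAND1, MESP1 and KDR summed to 110 FPKM on soft and 40.4 on stiff gel at day 3.5, and to 9.96 FPKM on soft and 14.5 on stiff gel at day 0, where KDR was the only one above 1 FPKM.

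The sequence upstream of 3 members is shown because the results turn on them. ITGB6 was the only member called between the gels. ITGA5 and ITGA6 are the RGD-binding and the laminin-binding alpha chain whose levels lay farthest apart between the days. Each window is the 250 bases before the gene's first start in the RefSeq table (GRCh38.p14), written 5′ to 3′ along the gene.

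ITGB6 (chr2:160200273-160200522, minus strand): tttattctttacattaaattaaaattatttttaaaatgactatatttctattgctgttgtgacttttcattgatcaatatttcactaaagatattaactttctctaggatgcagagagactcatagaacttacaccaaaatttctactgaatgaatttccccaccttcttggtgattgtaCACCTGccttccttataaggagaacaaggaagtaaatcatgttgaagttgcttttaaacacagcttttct
ITGA5 (chr12:54419267-54419516, minus strand): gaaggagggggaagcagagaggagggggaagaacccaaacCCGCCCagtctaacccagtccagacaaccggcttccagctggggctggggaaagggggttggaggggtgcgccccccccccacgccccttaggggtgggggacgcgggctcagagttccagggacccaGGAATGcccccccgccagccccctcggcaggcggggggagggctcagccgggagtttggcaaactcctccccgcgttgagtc
ITGA6 (chr2:172427086-172427335, plus strand): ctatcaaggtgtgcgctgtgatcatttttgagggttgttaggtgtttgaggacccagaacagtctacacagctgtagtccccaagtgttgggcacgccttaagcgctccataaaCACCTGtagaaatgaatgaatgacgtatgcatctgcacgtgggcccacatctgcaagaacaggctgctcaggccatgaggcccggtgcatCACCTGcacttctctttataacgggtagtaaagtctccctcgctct

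Capitals mark matches, on either strand, to GGAATG (the motif of TEAD factors), GGGCGG (SP1) or CAGGTG (SNAI factors), and none of these matches overlap. The ITGB6 window held 1 CAGGTG match, the ITGA6 window 2, and the ITGA5 window 1 GGAATG and 1 GGGCGG match. Of all 35116 windows of this length, 11.9% held GGAATG, 42.6% GGGCGG and 17.5% CAGGTG. Of the 25 members with a window, 16% held GGAATG, 52% GGGCGG and 28% CAGGTG. A match is a run of letters and not a binding site. The windows also differ in base composition, with 30% G or C for ITGB6, 70% for ITGA5 and 50.8% for ITGA6.

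Of the 37 members, 27 reached 1 FPKM in a group. The beta chain genes ITGB5 and ITGB1 were the most abundant. ITGB5 was at 132 FPKM on soft and 89.4 on stiff gel at day 3.5, and at 108 on soft and 149 on stiff gel at day 0. ITGB1, the common partner of most alpha chains, was at 128 FPKM on soft and 97.1 on stiff gel at day 3.5, and at 99.4 on soft and 122 on stiff gel at day 0. The order of the 2 genes is thus not the same in every group, and no replicate error stands behind it. Each took 44.3% to 53.9% of the beta chain FPKM in every group. The 10 members that stayed below 1 FPKM everywhere were ITGA10, ITGA11, ITGAD, ITGAL, ITGAM, ITGAX, ITGB2, ITGB7, LAMA3 and LAMB4, with a highest value of 0.849. They include ITGB2, the shared beta chain of leukocyte integrins, and LAMA3, a chain of epidermal laminin.

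**Figure D1:**
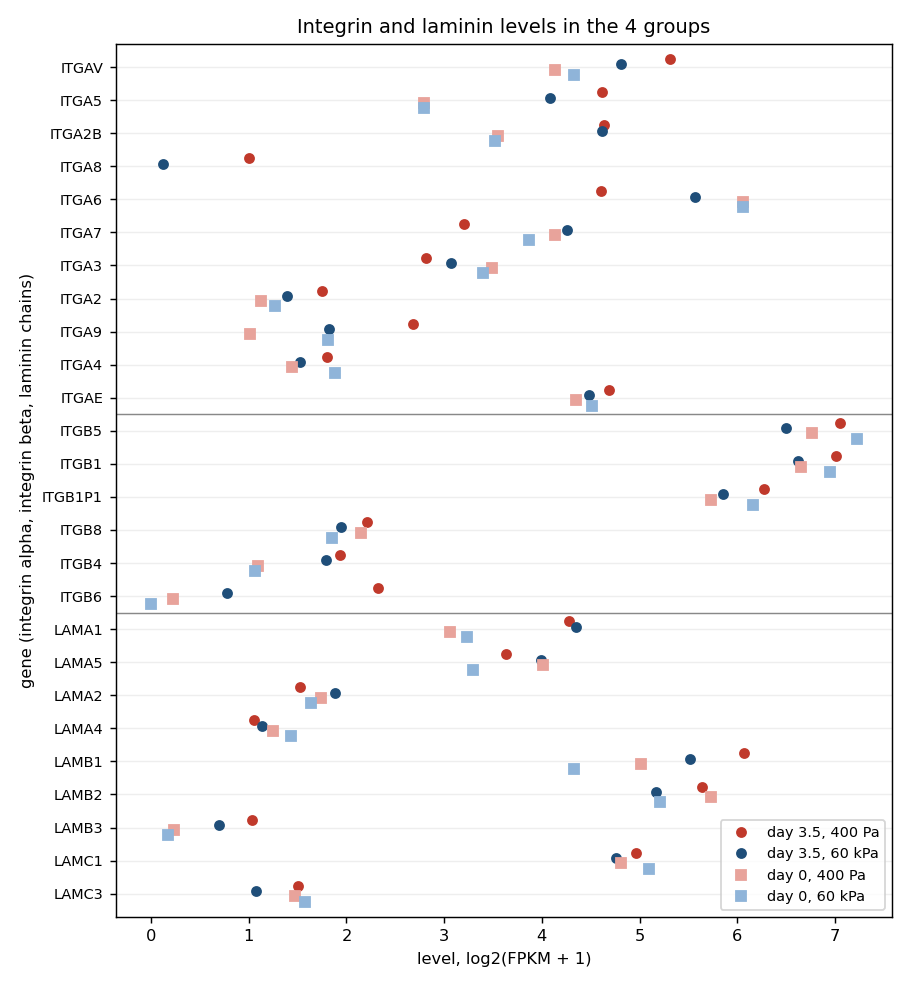
Levels of members that reached 1 FPKM, on the log2(FPKM + 1) scale, with 1 point for each of the 4 groups (circles day 3.5, squares day 0; red 400 Pa, blue 60 kPa). ITGB5 and ITGB1 lie highest, and ITGA6 lies lower at day 3.5 than at day 0 on both gels.

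In induced cells, ITGB6 rose on the soft gel, and it was the only integrin or laminin gene called. ITGB6 is the epithelial beta chain that pairs with ITGAV and activates latent TGF-beta. It lies on chr2:160956177-161128399 (hg19). Its level was 4.01 FPKM on soft and 0.716 on stiff gel at day 3.5. At day 0 it was 0.167 FPKM on 400 Pa and was listed at 0 on 60 kPa. The change at day 3.5, log2 of (FPKM + 1) on 400 Pa over that on 60 kPa, was 1.55, with q = 0.0346 in the authors' deposited table. Its standard error (SE), the log2 ratio over the test statistic as deposited, was 1.46, and no pseudocount enters it. The authors' deposited table gives its log2 ratio as -2.49, which runs 60 kPa over 400 Pa, its statistic as -1.70 and its p as 0.00035. A normal test of that statistic would give p = 0.0897, so p and statistic in the authors' deposited table (Cufflinks) do not match under it. The same direction of mismatch, a deposited p below that of a normal test, held for 27 of 27 members and 98.8% of the 14832 genes with a finite statistic at day 3.5 in the authors' deposited table. The SEs given here come from that statistic, and no p can be read from them. At q below 0.01 ITGB6 is not called.

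Across the 27 members tested at day 3.5, the authors' deposited table called 1 higher on 400 Pa and none higher on 60 kPa. Over all 14990 genes tested, 1.21% were called higher on 400 Pa and 0.24% higher on 60 kPa there. ITGB6, ITGA8, ITGA9 and ITGA6 had p below 0.05 before adjustment in the authors' deposited table, which is 4 of 27 members, beside 6.12% of all genes. A change of at least 1 on 400 Pa was seen for ITGB6, beside 4.36% of all genes, and of at least 1 on 60 kPa for ITGA7, beside 2.38%. The median change of the members was 0.34 on the log2 scale, with 20 of 27 above 0, beside a median of 0.04 and 54.4% above 0 over all genes. ITGB6, ITGA8 and LAMB3 reached 1 FPKM on the soft gel alone, which fixes their direction, and no member reached it on the stiff gel alone. With 1 FPKM required on both gels, 17 of 24 members were above 0 with a median of 0.27, beside 55% and a median of 0.04 over all genes. These directions were not tested. In these bulk libraries, fewer cells of a kind and less RNA per cell cannot be told apart.

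Some markers of other cell kinds also differed between the gels. Levels in this paragraph are those of day 3.5 unless day 0 is named. Of 6 amnion and trophoblast markers, VTCN1, GABRP and KRT7 were called higher on 400 Pa at day 3.5 in the authors' deposited table, none was at 0, and the list summed to 196 FPKM on soft and 39.1 on stiff gel. CGA of the same list was at 0.242 FPKM on soft and 1.03 on stiff gel, and TFAP2A at 13.6 on soft and 8.83 on stiff gel, both without a call. At day 0 the list summed to 14.9 FPKM on soft and 8.75 on stiff gel, and 1 of its genes already had a call. It was TFAP2A, at 2.41 FPKM on soft and 0.465 on stiff gel at day 0 (q = 0.0390 in the authors' deposited table). The 5 general epithelial markers CDH1, EPCAM, KRT8, KRT18 and CLDN6 had no call in the authors' deposited table and summed to 1310 FPKM on soft and 747 on stiff gel. KRT8 differed most, at 619 FPKM on soft and 225 on stiff gel, while CLDN6 was at 197 on soft and 190 on stiff gel. At day 0 the list summed to 751 FPKM on soft and 721 on stiff gel, so these genes were also high in undifferentiated cells. TP63, a transcription factor of stratified epithelium, was called higher on 400 Pa, at 3.21 FPKM on soft and 0.488 on stiff gel in the authors' deposited table. KRT5, another of the 4 keratinocyte markers, was at 0.0546 FPKM on 400 Pa and was listed at 0 on 60 kPa. COL17A1 was at 3.28 FPKM on soft and 2.76 on stiff gel, and KRT14 was not analysed here. Among 4 neuroectoderm markers, HESX1 and OTX2 were called lower on 400 Pa in the authors' deposited table, HESX1 at 5.11 FPKM on soft and 45.3 on stiff gel and OTX2 at 69.3 on soft and 152 on stiff gel. PAX6 was at 17.2 FPKM on soft and 19.6 on stiff gel, without a call. SOX1 was the lowest of that list, at 0.0101 FPKM on soft and 0.0267 on stiff gel, and the list summed to 91.6 FPKM on soft and 217 on stiff gel. At day 0 the order was the opposite, without a call. OTX2 was then at 136 FPKM on soft and 82.2 on stiff gel, and HESX1 at 15.0 on soft and 6.86 on stiff gel. The part of these cell kinds in the result for ITGB6, or in the levels of ITGA6 and ITGA7 below, was not tested.

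The RGD-binding alpha chains ITGAV and ITGA5 lay higher on the soft gel at day 3.5, without a call. ITGAV, the vitronectin receptor chain and partner of ITGB5 and ITGB6, was at 38.8 FPKM on soft and 27.0 on stiff gel (change 0.51, SE 1.23). ITGA5, the fibronectin receptor chain, was at 23.5 FPKM on soft and 15.9 on stiff gel (change 0.54, SE 0.71). ITGA8, which binds nephronectin, was at 1.01 FPKM on soft and 0.0865 on stiff gel. Its SE was 3.81, and the authors' deposited table gives p = 0.00265 before adjustment and q = 0.148, where a normal test of its statistic would give p = 0.352. Its direction is fixed by the FPKM minimum. ITGA2B, the platelet fibrinogen receptor chain, was at 23.8 FPKM on soft and 23.5 on stiff gel, so its 2 levels were nearly equal.

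Laminin-binding alpha chains lay the other way, again without a call. ITGA6 was at 23.3 FPKM on soft and 46.5 on stiff gel at day 3.5. Its change was -0.96 with an SE of 1.61, and q = 0.724 in the authors' deposited table. ITGA7, the main laminin receptor chain of muscle, was at 8.22 FPKM on soft and 18.1 on stiff gel (change -1.05, SE 2.37). ITGA3 was at 6.04 FPKM on soft and 7.40 on stiff gel (change -0.25, SE 1.34). All 3 laminin-binding chains thus lay below 0. Each change was smaller than its SE, but ITGA6 has an unadjusted p of 0.034 in the authors' deposited table, where a normal test of its statistic would give 0.537. Centring on the median gene puts ITGA2B at -0.022. The difference between the classes was not tested.

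The remaining integrin chains at day 3.5 lay above 0. ITGA9, a chain that binds tenascin and VCAM1, was at 5.40 FPKM on soft and 2.54 on stiff gel (change 0.85, SE 0.89), with q = 0.506 in the authors' deposited table. Its log2 ratio there, without a pseudocount and with 60 kPa over 400 Pa, is -1.09, which is larger in size than its SE. ITGA4, its closest relative, was at 2.49 FPKM on soft and 1.87 on stiff gel, and the collagen-binding ITGA2 at 2.36 on soft and 1.62 on stiff gel. ITGB5 had a change of 0.55 (SE 0.66) and ITGB1 of 0.39 (SE 0.70). ITGB8, which with ITGAV also activates TGF-beta, was at 3.64 FPKM on soft and 2.86 on stiff gel. ITGB4, the hemidesmosome beta chain that pairs with ITGA6, was at 2.83 FPKM on soft and 2.47 on stiff gel. None of these was called in the authors' deposited table.

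The row of ITGB1P1 followed that of ITGB1 closely. ITGB1P1 was at 76.2 FPKM on soft and 56.9 on stiff gel at day 3.5, and at 52.2 on soft and 70.3 on stiff gel at day 0. These values are 59.7% (soft) and 58.6% (stiff) of the ITGB1 level at day 3.5, and 52.5% (soft) and 57.4% (stiff) at day 0. A pseudogene can share reads with its parent gene, so the levels of both are uncertain.

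The laminin beta chains and LAMC1 lay above 0 at day 3.5 and the 4 tested alpha chains below, none with a call in the authors' deposited table. LAMB1 was at 66.3 FPKM on soft and 44.8 on stiff gel (change 0.56, SE 1.21), and LAMB2 at 48.8 on soft and 35.0 on stiff gel (change 0.47, SE 1.04). LAMC1, the gamma chain of most laminins, was at 30.2 FPKM on soft and 26.1 on stiff gel (change 0.20, SE 0.90). LAMA1, the alpha chain of the earliest embryonic laminin, was at 18.4 FPKM on soft and 19.4 on stiff gel (change -0.07, SE 0.82). LAMA5, the chain of the laminin on which human embryonic stem cells attach well, was at 11.4 FPKM on soft and 14.9 on stiff gel (change -0.36, SE 1.77). The low chains LAMA2, LAMA4, LAMB3 and LAMC3 lay between 0.620 and 2.69 FPKM.

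In undifferentiated cells no member was called between the gels. Of 24 members tested at day 0, the authors' deposited table (Cufflinks) called none, and none had p below 0.05 before adjustment. Over all 14195 genes tested there, 0.141% were called in all, 0.0775% were called higher on 400 Pa and 0.0634% higher on 60 kPa, and 1.94% had p below 0.05 before adjustment. No member changed by 1 or more, beside 1.8% of all genes higher on 400 Pa and 1.3% higher on 60 kPa. With so few calls anywhere, a missing call does not show equal levels. The median change was -0.13 with 10 of 24 above 0, beside a median of 0.02 and 54% above 0 over all genes. ITGA6 was at 65.5 FPKM on soft and 65.8 on stiff gel (change -0.01, SE 0.79), and ITGA5 at 5.95 on soft and 5.93 on stiff gel. LAMB1 was at 31.3 FPKM on soft and 19.1 on stiff gel (change 0.69, SE 1.10), and LAMA5 at 15.2 on soft and 8.83 on stiff gel (change 0.72, SE 1.90). ITGA9 was at 1.01 FPKM on soft and 2.52 on stiff gel (change -0.81, SE 1.43). The largest changes in each direction at day 0 were thus below their SE.

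**Figure D2:**
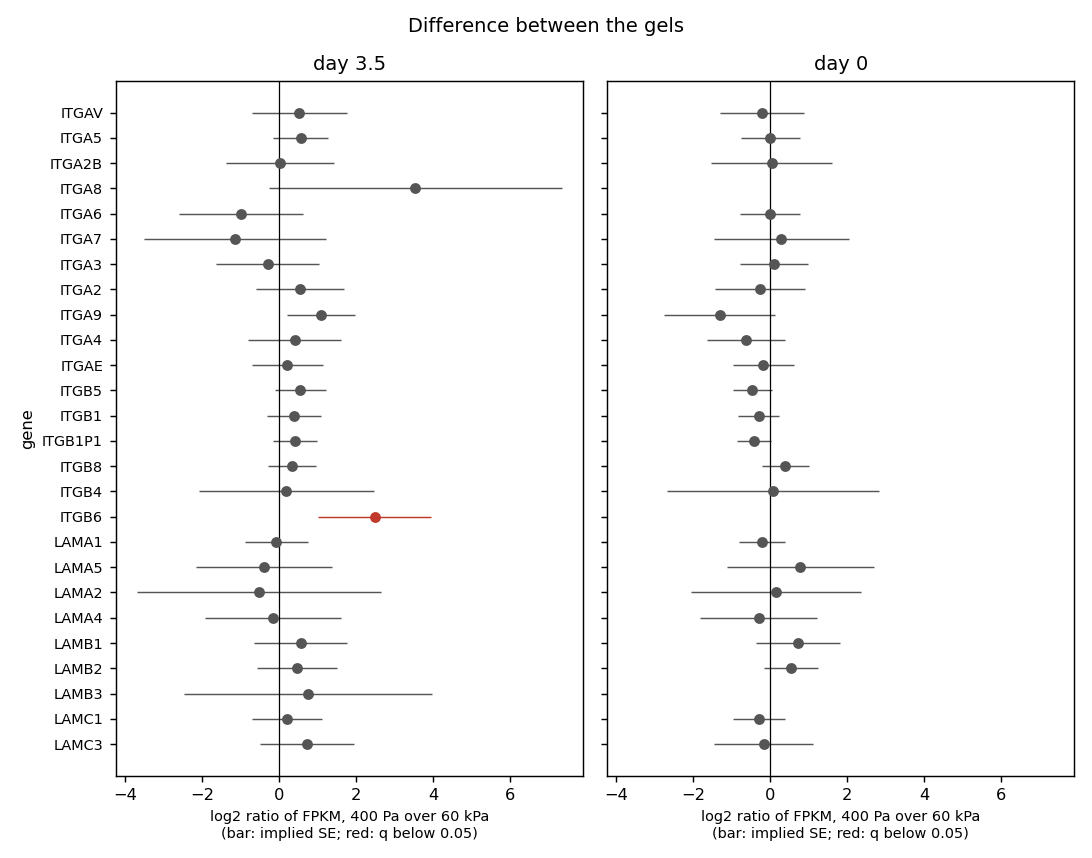
Log2 ratio of FPKM on 400 Pa over 60 kPa for tested members at day 3.5 (left) and day 0 (right), with the implied SE as bars. ITGB6 at day 3.5, in red, is the only call at q below 0.05 in the authors' deposited table, and most bars cross 0.

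The gel difference was then compared between the days. Of 24 members tested on both, 11 lay above 0 at day 3.5 and below 0 at day 0, which is 45.8% of them, beside 26.4% of all 13302 genes tested on both. They include ITGA9, ITGAV, ITGB5, ITGB1 and ITGB1P1, and the last 2 may share reads. ITGAV is an example, at 38.8 FPKM on soft and 27.0 on stiff gel at day 3.5, and at 16.5 on soft and 19.1 on stiff gel at day 0. The opposite order held for ITGA3, ITGA7, LAMA2 and LAMA5, which is 4 of 24 members or 16.7%, beside 26.9% of all genes. The change of LAMA2 at day 0 turned sign when its 2 rows were summed. The test of the difference itself took the 2 deposited ratios with the SEs above, used a normal approximation and was adjusted over 14177 genes. It called no member, beside 0.0776% of all genes. No member had p below 0.05 before adjustment in that test, beside 131 of the 14177 genes. Among the members, ITGA9 had the smallest p, 0.154. The median SE of a member's difference was 1.62 on the log2 scale, so only large differences could pass. This test rests on SEs that give larger p-values than the deposited ones, so the missing calls do not show equal effects on the 2 days. ITGB6 could not enter, because the authors did not test it at day 0.

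Levels at day 3.5 were next set beside those at day 0 on each gel, without a test, since the 2 tables were made separately. On 400 Pa, 7 of 26 members were higher at day 3.5 by at least 1 on the log2(FPKM + 1) scale, beside 9.76% of all genes, and 1 was lower by as much, beside 6.16%. On 60 kPa the counts were 4 of 24, beside 6.84%, and none, beside 4.33%. The members past that limit on both gels were ITGA5, ITGA2B, LAMA1 and LAMB1. Those past it on 400 Pa alone were ITGAV, ITGA9 and ITGB6 above and ITGA6 below. A gene was counted on a gel if it reached 1 FPKM there on either day. On 400 Pa, ITGB6 and LAMB3 reached it at day 3.5 alone, which fixes their direction. ITGB6 stayed below 1 FPKM on 60 kPa on both days and was not counted on that gel. The median change of the members was 0.36 on 400 Pa and -0.013 on 60 kPa, and that of all genes was -0.00075 on 400 Pa and 0.00013 on 60 kPa. Without members that hold a small RNA gene, the members' median on 400 Pa was 0.54.

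ITGA5 was higher at day 3.5 on each gel, by 1.82 on 400 Pa and 1.29 on 60 kPa. ITGAV was higher at day 3.5 by 1.19 on 400 Pa, at 38.8 FPKM against 16.5 at day 0, and by 0.48 on 60 kPa, at 27.0 against 19.1. ITGA2B was higher by 1.08 on 400 Pa and 1.10 on 60 kPa, at 23.8 FPKM at day 3.5 against 10.7 at day 0 on the soft gel. Its usual partner ITGB3 stands in a row merged with EFCAB13. Of the other megakaryocyte markers, GP1BA, PPBP and PF4 lay at or below 0.308 FPKM wherever they were analysed, and GP9 was not analysed here. PPBP was listed at 0 on 400 Pa at day 3.5. ITGA6 was lower at day 3.5 by 1.45 on 400 Pa (change -1.45) and had a change of -0.49 on 60 kPa. ITGA7 was at 16.5 FPKM on soft and 13.6 on stiff gel at day 0, and its changes were -0.93 on 400 Pa and 0.39 on 60 kPa. ITGA3 had changes of -0.68 on 400 Pa and -0.33 on 60 kPa.

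**Figure D3:**
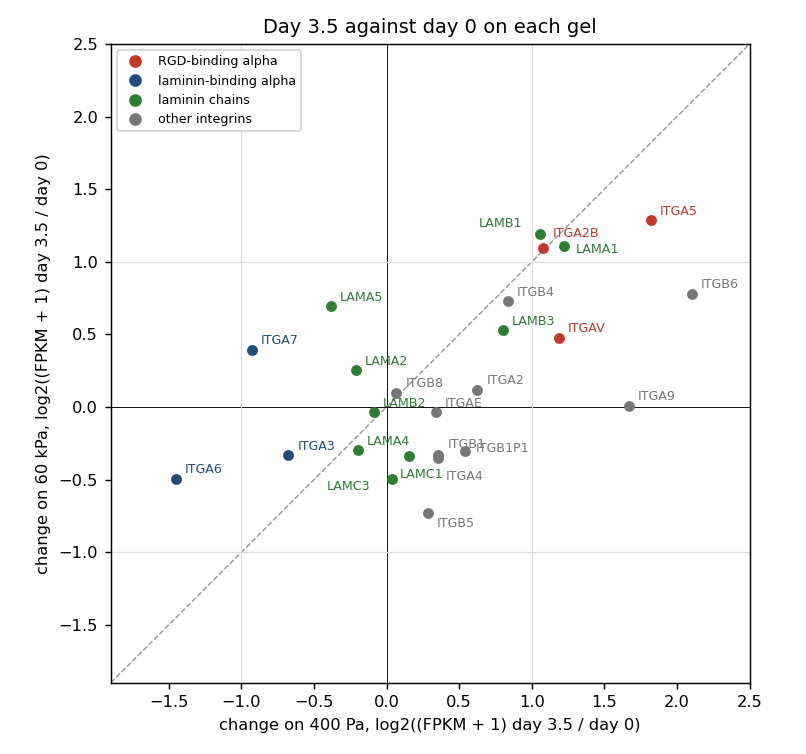
Change of members on the log2(FPKM + 1) scale, day 3.5 over day 0, on 400 Pa (x axis) and on 60 kPa (y axis), for members that reached 1 FPKM in a group and were analysed on both days, with a dashed line of equal changes and grey lines at a change of 1. ITGA5, ITGA2B, LAMA1 and LAMB1 lie past 1 on both axes, and ITGA6 lies farthest to the left at -1.45.

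The make-up of the alpha chains differed between the groups. RGD-binding chains held 54.1% of the summed alpha chain FPKM on soft and 40.0% on stiff gel at day 3.5, and 22.2% on soft and 23.1% on stiff gel at day 0. Laminin-binding chains held 23.4% on soft and 43.3% on stiff gel at day 3.5, and 61.7% on soft and 57.9% on stiff gel at day 0. The summed FPKM was 161 on soft and 166 on stiff gel at day 3.5, and 150 on soft and 154 on stiff gel at day 0. The ratio of ITGAV to ITGA6 was 1.66 on soft and 0.581 on stiff gel at day 3.5, and 0.252 on soft and 0.291 on stiff gel at day 0. Collagen-binding chains held between 0.893% and 1.73% in the 4 groups, without ITGA1. ITGA8, analysed at day 3.5 alone, held 0.625% on 400 Pa and 0.052% on 60 kPa there. These shares have no replicate error and no test. Rows under other names carry the same locus as several of these chains at day 3.5. There are 4 such rows each for ITGA5, ITGA6 and ITGA7, 3 for ITGAE and 2 for ITGAV. Their part in the levels was not tested.

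ITGAE, the chain of an integrin of intraepithelial lymphocytes, held most of the remaining share. It was at 24.7 FPKM on soft and 21.3 on stiff gel at day 3.5, and at 19.3 on soft and 21.9 on stiff gel at day 0. Its partner ITGB7 was at 0.849 FPKM or less in every group. Of 6 leukocyte markers, PTPRC, SPI1, CD14, LCP2 and CD79A lay at or below 0.373 FPKM in every group and summed to between 0.514 and 1.08 FPKM, and CD3E was not analysed here. CD14 was listed at 0 on 400 Pa at day 0. The ITGAE symbol has 3 rows, of which the highest was used. Whether counting used strand is not stated.

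The leading laminin chains differed between the days, without a test. LAMA1 was higher at day 3.5 by 1.23 on 400 Pa, at 18.4 FPKM against 7.31 at day 0, and by 1.11 on 60 kPa, at 19.4 against 8.43. LAMA5 had changes of -0.38 on 400 Pa and 0.69 on 60 kPa. LAMA1 thus held 55.8% of the laminin alpha chain FPKM on soft and 50.4% on stiff gel at day 3.5, and 27.2% on soft and 38.7% on stiff gel at day 0. Among beta chains LAMB1 was higher at day 3.5 by 1.06 on 400 Pa and 1.19 on 60 kPa, while LAMB2 had changes of -0.09 on 400 Pa and -0.03 on 60 kPa. LAMB1 held 57.1% of the beta chain FPKM on soft and 55.7% on stiff gel at day 3.5, and 37.5% on soft and 34.6% on stiff gel at day 0.

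**Figure D4:**
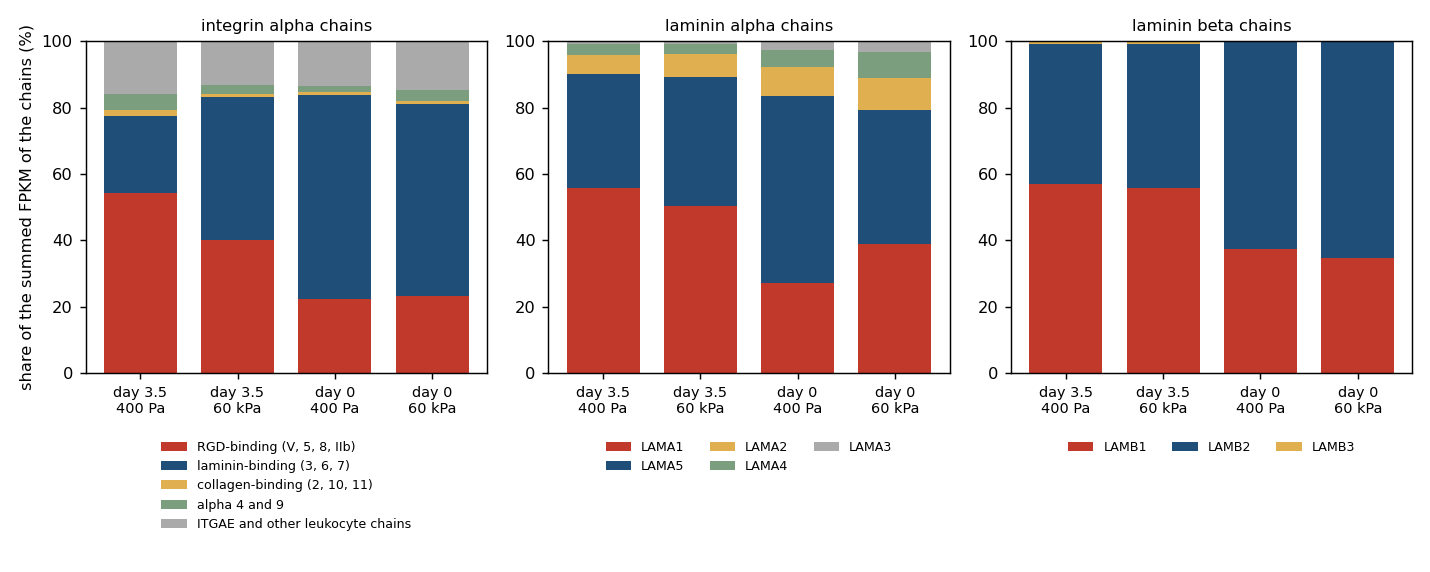
Shares, in percent of the summed FPKM, of integrin alpha chains by ligand class (left), laminin alpha chains (middle) and laminin beta chains (right) in the 4 groups, with LAMB4 left out of the last since its share is below 0.03%. RGD-binding chains hold 54.1% on 400 Pa at day 3.5, LAMA1 holds at least 50.4% on both gels at day 3.5, and LAMB1 at least 55.7%.

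Genes that work with integrins and laminins were described from 5 lists. Of 53 genes tested at day 3.5, 1 was called higher on 400 Pa, beside the 1.21% of all genes given above, and none higher on 60 kPa. At day 0 none of 52 was called, and no p there was below 0.05 before adjustment in the authors' deposited table. The call was SDC4, a heparan sulfate co-receptor of integrins at focal adhesions, at 44.4 FPKM on soft and 18.6 on stiff gel (change 1.21, SE 0.48, q = 0.0462 in the authors' deposited table). It was 1 of 11 further laminin and matrix receptors, whose median change was -0.09.

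Basement membrane partners had no call of 11 and a median change of 0.20 at day 3.5. SPARC was at 2639 FPKM on soft and 868 on stiff gel, and COL4A5, a chain of basement membrane collagen, at 79.0 on soft and 81.3 on stiff gel. Other integrin ligands had no call of 12 and a median of 0.33. FN1, fibronectin, was at 84.9 FPKM on soft and 38.0 on stiff gel at day 3.5, and at 18.4 on soft and 27.7 on stiff gel at day 0. MFGE8, an RGD ligand, was at 61.3 FPKM on soft and 83.4 on stiff gel at day 3.5. The integrin-associated tetraspanins had no call of 6 and a median of 0.26, with CD63 at 330.2 FPKM on soft and 269.6 on stiff gel and CD151 at 67.0 on soft and 52.0 on stiff gel. Integrin activators and adaptors had no call of 13 and a median of 0.36. FERMT2, the kindlin that activates integrins, was at 103 FPKM on soft and 232 on stiff gel at day 3.5, with q = 0.0789 in the authors' deposited table. PTK2, the focal adhesion kinase, was at 146 FPKM on soft and 138 on stiff gel.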

How the data were processed

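RNA-seq of H9 cells on gels of 400 Pa and 60 kPa, at day 3.5 and day 0, was used as deposited. The authors made FPKM values, 1 per gene locus and group of 2 libraries, with Cufflinks on hg19, per the submitters' processing notes. Aligner, versions, annotation and strand setting: not given in the sources used here. Besides FPKM, the authors deposited for each locus a p-value, a q-value, a test statistic (a score) and a log2 ratio with 60 kPa on top, and all calls are those of the authors at q below 0.05. A Benjamini-Hochberg adjustment over the loci they tested returned the deposited q-values within 5.24e-07.

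From these values the change of each gene was computed as log2((FPKM + 1) on 400 Pa / (FPKM + 1) on 60 kPa) over genes the authors tested that reached 1 FPKM in a group. The pseudocount of 1 understates changes of low genes. Rows that name several genes were left out. Members at or above 1 FPKM are named, except 1 that is not reported here, and from the related lists the called genes or the 2 most abundant at day 3.5. Members and lists were chosen with earlier results of these data known. Depth is unknown, so no counting interval can be given. The formula of the test of the difference between days was also run on simulated ratios before the deposited values. Their noise was drawn as normal with the same SEs, so that run could not show whether these SEs suit a normal test. Promoter sequences come from RefSeq (GRCh38.p14), matched by symbol, and no coordinate was converted. Alternatives were other pseudocounts, FPKM minimums, thresholds, scalings and row choices. Computation used scipy 1.17.1, numpy 2.4.6 and pandas 2.3.3 under Python 3.11.15, with matplotlib 3.10.9 for figures.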

Additional observations from a re-analysis of the deposited data

How the results depend on the processing

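Of the recomputed summary values, 110 stayed within 1.5 times the reported value without a change of sign and 11 did not. The call of ITGB6 gave a count of 0 members with an FPKM minimum of 5, which removes the gene, with 1 FPKM required on both gels, which also removes it, and with q below 0.01. At the minimum of 5 the median change at day 0 was -0.0061. For day 3.5 over day 0 on 400 Pa, a pseudocount of 0.1 gave 2 members lower by at least 1 (ITGA7 joined ITGA6), and leaving out members that hold a small RNA gene in GENCODE release 29 gave a median of 0.54. With sums equalised, LAMB1 on 400 Pa came to 0.99, just under 1. On 60 kPa the median was -0.035 at the minimum of 5, 0.0082 with no minimum, -0.10 with sums equalised without the 10 highest loci, 0.0082 without the pseudogene and -0.035 without the holders of small RNA genes. Its sign is therefore not fixed. Changes between gels that turned sign were ITGA2B at day 3.5 (-0.022) and ITGA5 at day 0 (-0.018) when centred on the median gene, and LAMA2 at day 0 (-0.18) when its 2 rows were summed. The cause was not tested. The settings without the pseudogene or the small RNA genes, with both gels at the minimum, and those for the shares, were chosen after seeing the data. Shares were recomputed for the RGD-binding and laminin-binding alpha chains only, and none of these moved by over 1.5 times. Without ITGAE, RGD-binding chains held 63.9% on soft and 45.8% on stiff gel at day 3.5, and 25.5% on soft and 26.9% on stiff gel at day 0. The collagen-binding share was not recomputed with the merged ITGA1 row. No paired analysis was possible because the tables give 1 value per group, and for the same reason no library could be left out.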

Other observations

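ITGA1, a collagen-binding alpha chain, stands in a row merged with PELO, which was at 24.3 FPKM on soft and 20.2 on stiff gel at day 3.5, and at 22.1 FPKM on soft and 26.7 on stiff gel at day 0. The reads of the 2 genes cannot be split there. ITGB3, the partner of ITGAV and ITGA2B, stands in a row merged with EFCAB13, at 1.49 FPKM on soft and 1.83 on stiff gel at day 3.5 and at 1.53 FPKM on soft and 1.33 on stiff gel at day 0. Neither row was called in the authors' deposited tables. The second row of LAMA2 was at 1.10 FPKM on soft and 1.28 on stiff gel at day 3.5 and at 0.714 FPKM on soft and 1.49 on stiff gel at day 0.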
